A study of Gallus gallus with 20 samples.

Results

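KRT1 and KRT10 are 2 of the 33 alpha-keratins, and of the 16290 genes, whose RNA was measured in embryonic chicken skin. Both were taken by name from the keratin table, where each has 1 row, and both passed the filter on low values (1 RPKM or more in 2 or more libraries), as 11863 genes did. RPKM is a read count scaled to gene length and to the mapped reads of the library.

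Alpha-keratins assemble as pairs of a type I and a type II chain into the intermediate filaments that give epithelial cells mechanical strength. In mammalian epidermis, dividing basal cells carry KRT5 with KRT14, and a cell that leaves the basal layer replaces them with KRT1, a type II chain, and KRT10, its type I partner. Both genes therefore serve as markers of the suprabasal, differentiating layers. Birds add beta-keratins, hard structural proteins of scale, claw and feather, to this alpha-keratin framework. The chicken genes are named here as the keratin table names them, and the roles given are those of mammals.

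White Leghorn chicken tissue was taken on embryonic day 16 and sequenced as 20 libraries in 9 groups. All groups but one were scutate scale, the large plates on the front of the foot. Control scales received RCAS, a retrovirus of birds used as a vector, with the green fluorescent protein gene, GFP (n = 2). Where the labels name virus, they give its injection on embryonic day 3. Other scales carried RCAS with beta-catenin, which acts in Wnt signalling (n = 2), Grem1, an antagonist of bone morphogenetic proteins (n = 2), Spry2, which dampens signalling from receptor tyrosine kinases such as those for fibroblast growth factors (n = 2), a transcription factor, either Sox18 (n = 3) or Sox2 (n = 2), or a construct named Zic1-deltaC (n = 3). RA scales came from embryos given retinoic acid on embryonic day 9 (n = 2). The labels name neither a vehicle group nor a virus for them, so retinoic acid and virus differed together between RA and GFP scales and cannot be told apart. Normal feather was dissected as dorsal skin with no virus named (n = 2), so appendage, body site and virus differed together between feather and GFP scale. The labels give delivery into the amniotic cavity and hind limb, or electroporation of plasmid, and do not say which library had which, how many cells were infected, or whether libraries came from separate embryos. The p-values therefore measure the spread between libraries, which may be technical.

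Claw keratins, a marker of scale, summed to 7776 to 43154 RPKM in 14 scale libraries, to 1694 and 4109 RPKM with Spry2, to only 655.6 and 451.5 RPKM with Sox2, and to 49.9 and 38.9 RPKM in feather, whose feather keratins summed to 548770 and 462430 RPKM. All keratins together took 4.39% to 74.4% of the summed RPKM. GFP replicate 1 stood apart from the other 19 libraries: it held 88 genes at 1 RPKM or more and at over 4 times every other library, against 0 to 2 such genes elsewhere. A set of 25 unnamed genes reached 1 RPKM in each library with Grem1, Spry2 or beta-catenin, 6 in all, and was listed at 0 in the other 14. A different set of 25 summed to 851 to 1649 RPKM in 8 libraries (beta-catenin, Spry2, RA and GFP) and to 0.4 to 9.0 RPKM in 12. Their part in the results was not tested. Results for KRT1 and KRT10 whose call changes without GFP replicate 1 are given with both values. The changes of the other keratins and the counts of the keratin lists were not refitted with a library left out.

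KRT10 was among the most abundant transcripts of every scale group and far lower, though still detected, in feather. It stood at 2670 and 2217 RPKM in the GFP libraries and at 21.9 and 15.6 RPKM in the feather libraries. Zic1-deltaC scales had the most, 4280, 4456 and 4882 RPKM, followed by Grem1 with 3327 and 3613 RPKM and Spry2 with 3388 and 3063 RPKM. These 7 libraries were all above both GFP libraries. RA scales held 2201 and 2540 RPKM, on both sides of GFP replicate 2. Below them came beta-catenin scales with 1900 and 2112 RPKM and Sox18 scales with 1499, 1502 and 1941 RPKM, all of them lower than either GFP library. In the tests below this difference was not called with beta-catenin, and with Sox18 the call depended on the scaling. How many of all genes lay apart from GFP in the same way was not counted for any group. Sox2 scales had 949.6 and 545.1 RPKM, the lowest of any scale group, and they did not overlap any other group. By rank within a library, KRT10 was the 5th or 6th most abundant of all 16290 genes with Zic1-deltaC, and 1071st and 1866th in feather.

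KRT1 was far less abundant and followed another order. GFP scales had 163.3 and 132.7 RPKM and feather 0.6 and 0.5 RPKM, near the single decimal to which the values were given. Spry2 scales stood highest, at 664.4 and 584.9 RPKM, and Grem1 scales second, at 422.7 and 348.4 RPKM, both clear of every other group. Zic1-deltaC scales had 254.2, 211.4 and 259.5 RPKM, which overlapped Sox18 scales at 158.6, 197.7 and 247.0 RPKM. Beta-catenin scales stood at 136.4 and 110.5 RPKM, with their higher library inside the GFP range. RA scales, at 94.1 and 99.8 RPKM, lay below both GFP libraries. Sox2 scales were split, with 182.1 RPKM in replicate 1, above both GFP libraries, and 80.2 RPKM in replicate 2, below them. Over the 18 scale libraries KRT1 spanned 8.28-fold and KRT10 8.96-fold.

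**Figure D1:**
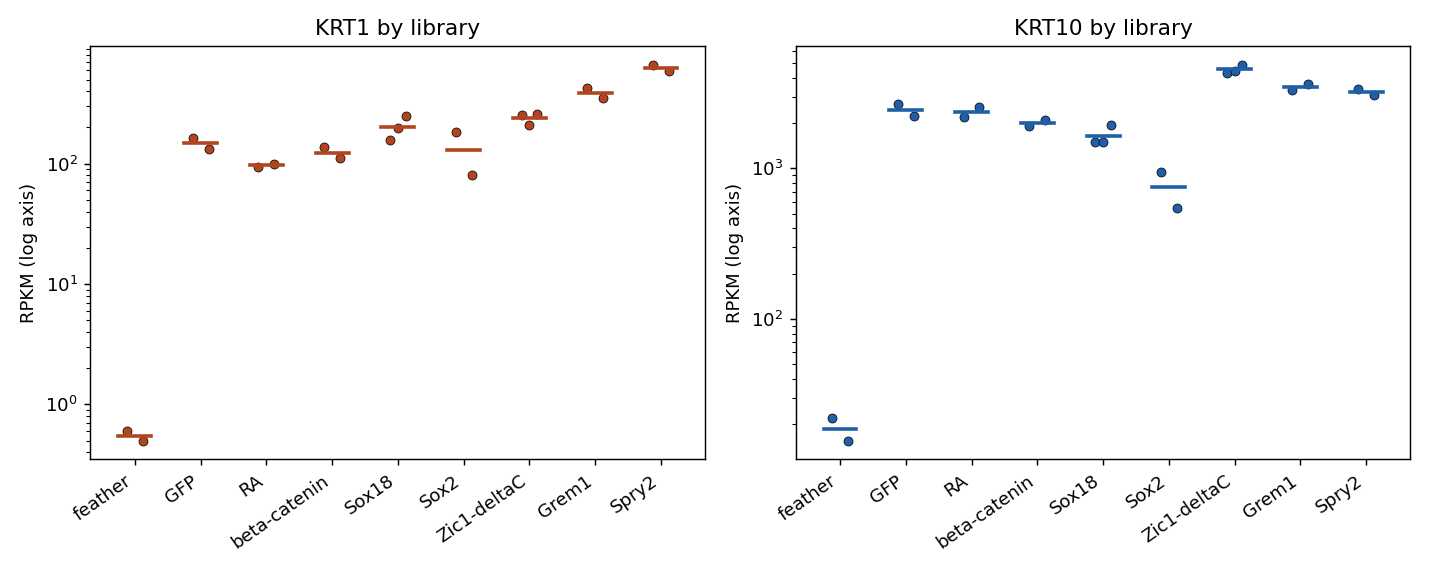
RPKM of KRT1 (left) and KRT10 (right) on log axes in each of the 20 libraries (points) of the 9 groups, with the group mean as a line. Feather lies far below all scale groups for both genes, KRT1 is highest with Spry2 (664.4 and 584.9 RPKM), and KRT10 is highest with Zic1-deltaC (4280 to 4882 RPKM) and, among scales, lowest with Sox2 (949.6 and 545.1 RPKM).

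Levels were compared with limma on log2(RPKM + 1) in a single fit of all genes and all 20 libraries, with p-values adjusted over the 11863 genes of each comparison and a threshold of 0.05. A log2 change on this scale understates the change of low values. Across the 9 groups both genes differed (limma moderated F, adjusted p = 1.69e-12 for KRT1 and 2.32e-13 for KRT10), but so did 98.8% of all genes tested.

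In feather both genes fell further below the GFP scale than nearly all other genes. KRT10 averaged 18.8 ± 4.45 RPKM (SD, n = 2) against 2444 ± 321 RPKM (SD, n = 2), a level 130-fold lower, and its log2 change was -6.96 (SE 0.22, limma adjusted p = 9.34e-14). KRT1 averaged 0.55 ± 0.07 RPKM against 148 ± 21.6 RPKM, 269-fold lower, with a log2 change of -6.58 (SE 0.27, limma adjusted p = 1.44e-12). Of all genes tested, 78.6% were called lower and 9.68% higher in feather, with a median log2 change of -0.93, so the direction alone is shared with most genes. By size, KRT10 had the 22nd and KRT1 the 27th lowest log2 change of 11863. After each library was scaled by its median ratio to the others, which brought the median of all genes to -0.02, the changes were -5.74 for KRT10 and -5.93 for KRT1. In these bulk samples fewer suprabasal cells and less keratin RNA per cell cannot be told apart.

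All 7 treated scale groups held far more of both genes than feather. The smallest difference was that of KRT10 in Sox2 scales, 39.9-fold above feather (log2 change 5.21, SE 0.22, limma adjusted p = 1.42e-12), and the largest that of KRT1 in Spry2 scales, 1136-fold above (8.65, SE 0.27, limma adjusted p = 6.06e-14). Both genes were called higher than feather in each of the 7 groups. The same call was made for 71.7% of all genes in RA scales, 75.9% in Sox18, 77.5% in beta-catenin, 82.6% in Sox2, 79.2% in Zic1-deltaC, 81.8% in Spry2 and 78.5% in Grem1 scales. RA and Sox18 scales are the scale groups with the most feather keratin RNA (129279 to 211230 RPKM in sum). RA scales stood 126-fold above feather in KRT10 and 176-fold in KRT1, and Sox18 scales 87.9-fold and 366-fold. The feather libraries serve in all 7 of these comparisons.

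The 7 treated groups were next set against the same 2 GFP libraries, which makes these comparisons dependent on each other. KRT1 rose most in Spry2 scales, to 625 ± 56.2 RPKM (SD, n = 2), 4.22-fold the GFP mean (log2 change 2.07, SE 0.27, limma adjusted p = 3.46e-05). KRT10 stood at 3226 ± 230 RPKM in the same libraries, 1.32-fold the GFP mean (0.40, SE 0.22, 95% interval -0.06 to 0.87, limma adjusted p = 0.193). Of all genes tested, 17.9% were called higher and 7.41% lower. In Grem1 scales KRT1 rose to 386 ± 52.5 RPKM, 2.61-fold the GFP mean (1.38, SE 0.27, limma adjusted p = 0.00111), beside 13.2% of genes higher and 18.2% lower. KRT10 in Grem1 scales was 3470 ± 202 RPKM, 1.42-fold the GFP mean, and did not pass (0.51, SE 0.22, limma adjusted p = 0.0903). The call for KRT10 in Grem1 scales was made without Sox2 replicate 1 (limma adjusted p = 0.0381) or replicate 2 (0.0389). It also depended on the scaling: with quantile normalization KRT10 was higher in both Spry2 (0.95, limma adjusted p = 0.00528) and Grem1 scales (1.02, limma adjusted p = 0.00251).

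Beta-catenin scales share with Grem1 and Spry2 scales the 25 unnamed genes listed at 0 elsewhere, so the groups were also compared among themselves. KRT1 was higher than in beta-catenin scales by a log2 change of 1.64 with Grem1 (SE 0.27, limma adjusted p = 0.000246) and of 2.33 with Spry2 (SE 0.27, limma adjusted p = 8.02e-06). KRT10 was higher by 0.79 (SE 0.22, limma adjusted p = 0.0138) and 0.69 (SE 0.22, limma adjusted p = 0.0229). The call for KRT10 with Grem1 ended without beta-catenin replicate 1 (0.0864) or Grem1 replicate 2 (0.077). That with Spry2 ended after median-ratio scaling (0.166), without either beta-catenin library (0.123 and 0.0536) and without Spry2 replicate 1 (0.123). Of all genes, 26.3% and 38.3% were called in these 2 comparisons.

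Zic1-deltaC scales were the only group in which both genes were called higher than GFP in the fit of all libraries. In Grem1 and Spry2 scales both genes also lay above both GFP libraries, but only KRT1 was called. KRT10 reached 4539 ± 310 RPKM (SD, n = 3), 1.86-fold the GFP mean (log2 change 0.90, SE 0.20, limma adjusted p = 0.00419), while 14.8% of all genes were called higher and 9.9% lower. KRT1 reached 242 ± 26.4 RPKM, 1.63-fold the GFP mean (0.71, SE 0.24, limma adjusted p = 0.0452). All 3 libraries lay above both GFP libraries for both genes. How many of all genes lay apart from GFP in this way, here or in any other group, was not counted. The KRT10 call ended without GFP replicate 2 (log2 change 0.76, limma adjusted p = 0.0731) and held without GFP replicate 1. The KRT1 call was lost in 16 of the 20 fits that left out 1 library, among them those without GFP replicate 1 (0.85, limma adjusted p = 0.0695) and replicate 2 (0.56, limma adjusted p = 0.298).

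Sox2 scales had less KRT10 than GFP scales, without a called change of KRT1 in the fit of all libraries. KRT10 fell to 747 ± 286 RPKM (SD, n = 2), 3.27-fold below the GFP mean (log2 change -1.76, SE 0.22, limma adjusted p = 7.98e-06), against a background of 10.4% of genes lower and 48.5% higher. Its change was the 196th lowest of 11863, and it was -2.10 after median-ratio scaling. KRT1 averaged 131 ± 72.1 RPKM (-0.28, SE 0.27, 95% interval -0.85 to 0.29, limma adjusted p = 0.377). That value rests on 2 libraries that disagree: without Sox2 replicate 1 the change was -0.87 (limma adjusted p = 0.00467), and without replicate 2 it was 0.31 (limma adjusted p = 0.263).

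Sox18 scales had less KRT10, at 1647 ± 254 RPKM (SD, n = 3), 1.48-fold below the GFP mean (log2 change -0.57, SE 0.20, limma adjusted p = 0.025). In the same comparison 41.3% of all genes were called lower and 12.3% higher, and the median gene changed by -0.20. The call ended after median-ratio scaling (-0.35, limma adjusted p = 0.207), without GFP replicate 1 (-0.44, limma adjusted p = 0.188), and without Sox18 replicate 1 (0.0748) or replicate 2 (0.0734). KRT1 stood at 201 ± 44.3 RPKM with 1 of 3 libraries inside the GFP range (0.42, SE 0.24, limma adjusted p = 0.155). It passed after median-ratio scaling (0.65, limma adjusted p = 0.0438) and without Sox2 replicate 1 (0.0383) or replicate 2 (0.0384).

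RA and beta-catenin scales gave no called change of either gene in the fit of all libraries, though KRT1 with RA was close to the threshold. With RA, KRT10 averaged 2371 ± 240 RPKM (SD, n = 2), a log2 change of -0.04 (SE 0.22, 95% interval -0.51 to 0.43, limma adjusted p = 0.884). The change was 0.32 after median-ratio scaling (limma adjusted p = 0.318) and -0.44 after quantile normalization (limma adjusted p = 0.133). KRT1 averaged 97.0 ± 4.03 RPKM (-0.60, SE 0.27, 95% interval -1.17 to -0.03, limma adjusted p = 0.0637). The same change passed in a fit of only the RA and GFP libraries (limma adjusted p = 0.0123) and in the fits without Sox2 replicate 1 (0.00966) or replicate 2 (0.00968). With beta-catenin, KRT10 averaged 2006 ± 150 RPKM (-0.28, SE 0.22, 95% interval -0.75 to 0.19, limma adjusted p = 0.385) and KRT1 123 ± 18.3 RPKM (-0.26, SE 0.27, 95% interval -0.83 to 0.31, limma adjusted p = 0.518). Of all genes, 52.2% were called lower and 8.34% higher with RA, and 15.2% lower and 7.97% higher with beta-catenin. Feather keratins in the same RA libraries summed to 209635 and 211230 RPKM, against 15950 and 18786 RPKM in GFP scales. The RA libraries thus combined feather keratin RNA with a KRT10 level not called different from control scale. That miss does not show equal levels, and KRT1 lay below both GFP libraries.

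The balance of all genes in these comparisons depended on the scaling, which bears on the shares called higher and lower above. After median-ratio scaling, with 11690 genes tested, 4213 genes were higher and 4329 lower in feather than in GFP scales, where unscaled values gave 1148 and 9328. The scaled counts were 2310 higher and 1974 lower with RA (unscaled 989 and 6193), 2821 and 2922 with Sox18 (1456 and 4904), and 1655 and 1473 with beta-catenin (946 and 1802). With Sox2 they were 2073 and 2520 (5751 and 1236), with Spry2 1486 and 1496 (2122 and 879), with Grem1 2226 and 1974 (1561 and 2163), and with Zic1-deltaC 1665 and 1657 (1760 and 1175). These near-even splits follow largely from the scaling, which brings the median gene close to no change. After it KRT1 stayed higher with Spry2 (1.95, limma adjusted p = 0.000115) and Grem1 (1.43, limma adjusted p = 0.00101). KRT10 stayed higher with Zic1-deltaC (0.84, limma adjusted p = 0.0111) and lower with Sox2. Against feather the scaled splits were as even, from 3755 higher and 3949 lower with RA to 4578 and 4423 with Zic1-deltaC, and KRT1 and KRT10 were higher in all 7 groups.

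**Figure D2:**
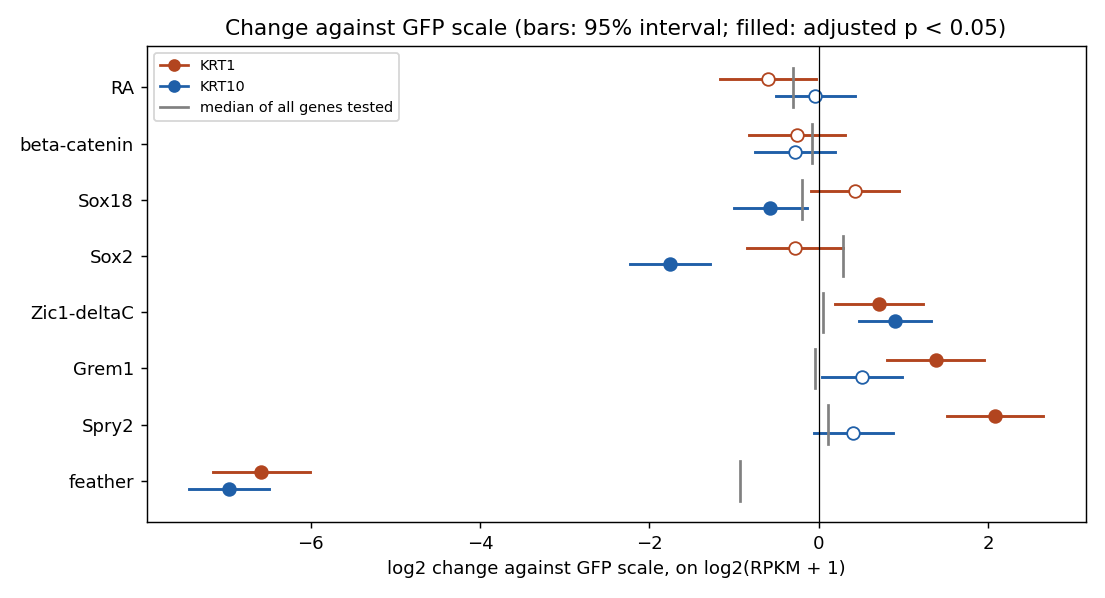
Log2 change of KRT1 and KRT10 against GFP scale on log2(RPKM + 1) in 8 comparisons, with 95% intervals, filled where the limma adjusted p was below 0.05, and the median of all genes as a grey line. Only feather moved both genes far down (-6.58 and -6.96), KRT1 rose most with Spry2 (2.07), and KRT10 fell with Sox2 (-1.76).

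Ordered by mean level, KRT1 ran from Spry2 through Grem1, Zic1-deltaC, Sox18, GFP, Sox2, beta-catenin and RA to feather. Neighbours in this order passed the test only between Grem1 and Zic1-deltaC (limma adjusted p = 0.0386, with 40.3% of all genes called) and between RA and feather. The Grem1 to Zic1-deltaC call ended without either Grem1 library (0.231 and 0.0652) or any Zic1-deltaC library (0.0533 to 0.113). The other neighbours missed it: Spry2 to Grem1 (0.0585, 30.5% of genes called), Zic1-deltaC to Sox18 (0.275, 62.2%), Sox2 to beta-catenin (0.95, 68.2%) and beta-catenin to RA (0.312, 47.1%), besides the GFP pairs above. With 1 library left out, Spry2 to Grem1 passed in 3 of 20 fits (log2 change 0.56 to 0.84). Sox2 to beta-catenin changed its direction or call in 3 of 20 (-0.61 to 0.56). KRT10 ran from Zic1-deltaC through Grem1, Spry2, GFP, RA, beta-catenin, Sox18 and Sox2 to feather. Here Sox18 differed from Sox2 (log2 change 1.18, SE 0.20, limma adjusted p = 6.11e-05, with 76.7% of genes called) and Sox2 from feather. No other neighbours passed (Zic1-deltaC to Grem1 0.14, Grem1 to Spry2 0.745, RA to beta-catenin 0.39, and beta-catenin to Sox18 0.247, where 47.6% of genes were called). A miss does not show that the levels were equal, since the 95% intervals of the missed pairs reached as far as 1.27 for KRT1 (Spry2 to Grem1) and 0.87 for KRT10 (Spry2 to GFP).

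The proportion of the partners differed between some groups and overlapped in others. RPKM is scaled to gene length, so the levels of both genes were set side by side within a library, as a description without a test. The annotation and the handling of reads shared between genes were not found, so the size of the ratio is uncertain. KRT10 was 16.4 and 16.7 times KRT1 in the GFP libraries, 13.9 and 19.1 times with beta-catenin and 16.8 to 21.1 times with Zic1-deltaC. With RA the ratio was 23.4 and 25.5. It was lower in all 9 Sox18, Grem1, Sox2 and Spry2 libraries: 7.60 to 9.45 with Sox18, 7.87 and 10.4 with Grem1, 5.21 and 6.80 with Sox2, and 5.10 and 5.24 with Spry2. These 9 libraries did not overlap the other 11, though within them Sox18 overlapped Grem1 and Sox2 overlapped Spry2, as GFP lay within the beta-catenin range. In Spry2 scales the low ratio went with more KRT1 and in Sox2 scales with less KRT10. The feather ratio of 36.5 and 31.2 rests on KRT1 values of 0.6 and 0.5 RPKM.

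As a share of the summed RPKM of the 33 alpha-keratins, KRT10 made up 18.4% and 14.2% in GFP scales, 27.8% to 30.0% in Zic1-deltaC scales, and 24.1% and 21.3% in Spry2 scales. With Sox2 it was 8.89% and 5.40%, and in feather 0.63% and 0.39%. KRT10 was the most abundant alpha-keratin in 9 libraries, those of Zic1-deltaC, Spry2, Grem1 and RA. In GFP and beta-catenin scales that was KRT6A, a keratin of the nail bed and of injured epidermis in mammals. KRT10 and KRT6A were nearly level in RA replicate 1 (2201.3 and 2198.1 RPKM) and GFP replicate 1 (2670.4 and 2709.7 RPKM). In Sox18 scales and feather the most abundant was KRT13A, of a gene that serves internal stratified epithelia in mammals. In Sox2 scales it was KRT6C in replicate 1 and KRT13B in replicate 2.

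The basal keratins KRT5, KRT14 and KRT15 were set beside the pair, as the layer below it. All 3 fell in feather, with KRT5 at 161 ± 47.9 against 1254 ± 101 RPKM in GFP scales (log2 change -2.98, limma adjusted p = 6.17e-11), KRT14 at 337 ± 90.7 against 1105 ± 117 RPKM (-1.73, limma adjusted p = 2.8e-08) and KRT15 at 145 ± 30.1 against 728 ± 65.3 RPKM (-2.33, limma adjusted p = 1.03e-09). Of all genes, 78.6% were called lower in feather. The median log2 change of the 3 basal keratins was -2.33, against -0.93 for all genes. After median-ratio scaling all 3 were still lower, with a median of -1.07 against -0.02. The sum of KRT1 and KRT10 was 0.95 and 0.74 times the sum of these 3 in GFP scales, and 0.04 and 0.02 times in feather. In each treated group except Sox2 that ratio lay above both GFP libraries, from 1.03 and 1.15 with beta-catenin to 2.40 and 2.41 with Spry2. In Sox2 scales it was 0.52 and 0.31. The ratio stays the same when a library is multiplied by any factor.

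These higher ratios went with changes on either side, all measured against the same 2 GFP libraries. Those libraries held the most KRT14 of all, 1022.3 and 1187.8 RPKM, against at most 735.3 RPKM in any other library. KRT14 was thus below GFP in every group, and whether a trait of the 2 controls lies behind this was not tested. In Sox18 scales all 3 basal keratins fell (KRT5 to 329 ± 34.5 RPKM, -1.93, limma adjusted p = 8.13e-08) and KRT10 fell less, which left the ratio at 1.57, 1.83 and 2.04. There 41.3% of all genes were called lower, and all 3 basal keratins stayed lower after median-ratio scaling (median -1.69 against -0.02). In Spry2 scales KRT5 (-1.09, limma adjusted p = 0.000191) and KRT14 (-1.21, limma adjusted p = 4.65e-05) fell and KRT1 rose. There KRT10 also stood higher (3226 against 2444 RPKM) and KRT15 lower (536 against 728 RPKM), both without a call. After median-ratio scaling all 3 basal keratins were called lower with Spry2. With RA all 3 fell, but only 1 of them after median-ratio scaling, and the median of the list was -0.65 against -0.31 for all genes. With Zic1-deltaC only KRT14 fell (-1.03, limma adjusted p = 0.000106), with beta-catenin KRT14 and KRT15 fell, and with Sox2 KRT5 and KRT14 did. In Grem1 scales KRT15 rose (0.51, limma adjusted p = 0.0297) and KRT14 fell (-0.81, limma adjusted p = 0.00134). Of all genes, 52.2% were called lower with RA, 7.41% with Spry2 and 9.9% with Zic1-deltaC. That share was 15.2% with beta-catenin, 10.4% with Sox2 and 18.2% with Grem1, where 13.2% were higher.

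**Figure D3:**
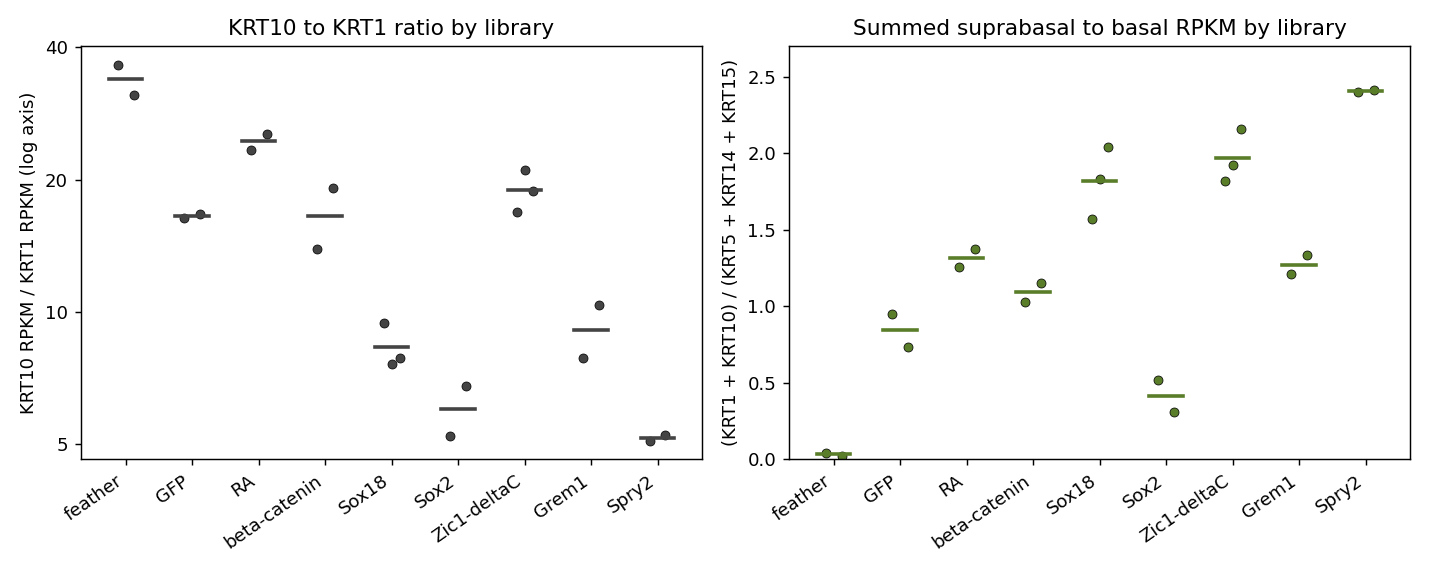
KRT10 to KRT1 ratio of RPKM on a log axis (left) and the sum of KRT1 and KRT10 divided by the sum of the basal keratins KRT5, KRT14 and KRT15 (right) in each library, with group means as lines. The left ratio is 10.4 or less in the Sox18, Sox2, Grem1 and Spry2 libraries, and the right one is lowest in feather (0.04 and 0.02) and highest with Spry2 (2.40 and 2.41).

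Of the other 4 listed suprabasal keratins, KRT9 and KRT78 had rows. KRT9, a type I keratin of suprabasal palm and sole epidermis in mammals, lies next to KRT10 among the protein-coding genes in the RefSeq annotation of another chicken build, GRCg7b. It was at 310 ± 18.4 RPKM in GFP scales and 4.10 ± 0.57 RPKM in feather (-5.94, SE 0.18, limma adjusted p = 4.73e-14), and fell with Sox2, to 6.80 ± 2.40 RPKM (-5.35, SE 0.18, limma adjusted p = 5.12e-13). It rose with RA to 580 ± 50.7 RPKM (0.90, limma adjusted p = 0.000574) and with Zic1-deltaC to 505 ± 56.6 RPKM (0.70, limma adjusted p = 0.00498). In Spry2 scales KRT9 fell to 117 ± 5.52 RPKM (-1.40, limma adjusted p = 2.49e-05), where KRT1 rose, and in Sox18 scales it fell to 90.2 ± 15.02 RPKM (-1.78, limma adjusted p = 2.71e-07). KRT78 was low in GFP scales (5.65 ± 1.20 RPKM) and feather (6.95 ± 1.06 RPKM), and rose most with Sox2, to 48.9 ± 10.7 RPKM (2.90, limma adjusted p = 6.6e-10).

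Over all 33 alpha-keratins, KRT1 and KRT10 included, the counts went both ways in each group. In feather 9 were higher and 17 lower than in GFP scales (median log2 change -0.48), but 16 and 13 after median-ratio scaling, which turned the sign of that median (0.50). Unscaled, 9.68% of all genes were called higher and 78.6% lower in feather. Sox2 scales had 16 higher and 11 lower (median 0.25 against 0.28 for all genes), and Grem1 scales 19 higher and 4 lower (0.51 against -0.05). With RA the counts were 10 and 8, or 16 and 5 after scaling. They were 12 and 12 with Sox18, 13 and 6 with Spry2 (11 and 10 after scaling), 7 and 6 with beta-catenin, and 11 and 7 with Zic1-deltaC. The unscaled background of genes called lower was 10.4% (Sox2), 18.2% (Grem1), 52.2% (RA), 41.3% (Sox18), 7.41% (Spry2), 15.2% (beta-catenin) and 9.9% (Zic1-deltaC). Called higher were 48.5% (Sox2), 13.2% (Grem1), 8.34% (RA), 12.3% (Sox18), 17.9% (Spry2), 7.97% (beta-catenin) and 14.8% (Zic1-deltaC). The unscaled counts by role that follow have this same background. By role, the 6 stress keratins, led in level by KRT6C, had 4 members higher with each of Sox2, Spry2 and Grem1, and 2 or 3 in the other 5 groups, while 3 were lower with Sox18, 2 in feather and with Sox2, and 1 elsewhere. The same count of 4 higher thus stood beside 48.5% of all genes higher with Sox2, but 17.9% with Spry2 and 13.2% with Grem1. After median-ratio scaling 4 stress keratins were higher in feather and 3 with Spry2 and RA, so the counts no longer set those treatments apart. KRT6C itself fell in feather (-2.93, limma adjusted p = 3.65e-11), Sox2 (-0.96, limma adjusted p = 0.000109) and Sox18 scales (-0.73, limma adjusted p = 0.000523). Its mean was above that of GFP scales (2277 ± 21.6 RPKM) with Grem1 (3185 ± 72.8 RPKM), Zic1-deltaC (2504 ± 21.5 RPKM) and beta-catenin (2334 ± 48.6 RPKM). Of the 6 simple-epithelium keratins, led by KRT8, 6 were higher with Grem1 and 5 with Sox2, beside 13.2% and 48.5% of all genes. In this list 0 were higher with beta-catenin (7.97% of all genes) and 2 or 3 elsewhere (8.34% to 17.9%). After median-ratio scaling 5 were higher in feather and with Sox18 and 4 with RA, so Grem1 and Sox2 scales did not stand apart by this count. KRT8 rose to 275 ± 51.3 RPKM with Sox2 (limma adjusted p = 0.00028) and 251 ± 53.6 RPKM with Grem1 (limma adjusted p = 0.00217) against 141 ± 5.16 RPKM in GFP scales.

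The 6 keratins of internal stratified epithelia, led by KRT13A, had 4 members lower in feather and 4 lower with RA, 3 lower with Sox18 and Zic1-deltaC, and 1 or 2 elsewhere, beside 1 to 3 higher in each comparison. Of all genes, 78.6% were called lower in feather, 52.2% with RA, 41.3% with Sox18 and 9.9% with Zic1-deltaC. After median-ratio scaling 4 members were lower in feather and 3 with each of RA, Sox18 and Zic1-deltaC. KRT13A rose with Sox18 to 2768 ± 308 against 1097 ± 206 RPKM (1.34, limma adjusted p = 0.000527). Of the 6 follicle and nail keratins, led by KRT74, 2 to 4 were higher and 0 to 3 lower in each comparison. Over all genes, 7.97% to 48.5% were called higher and 7.41% to 78.6% lower in these comparisons. KRT74 rose with beta-catenin to 1311 ± 186 against 482 ± 269 RPKM (1.56, limma adjusted p = 0.00309).

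**Figure D4:**
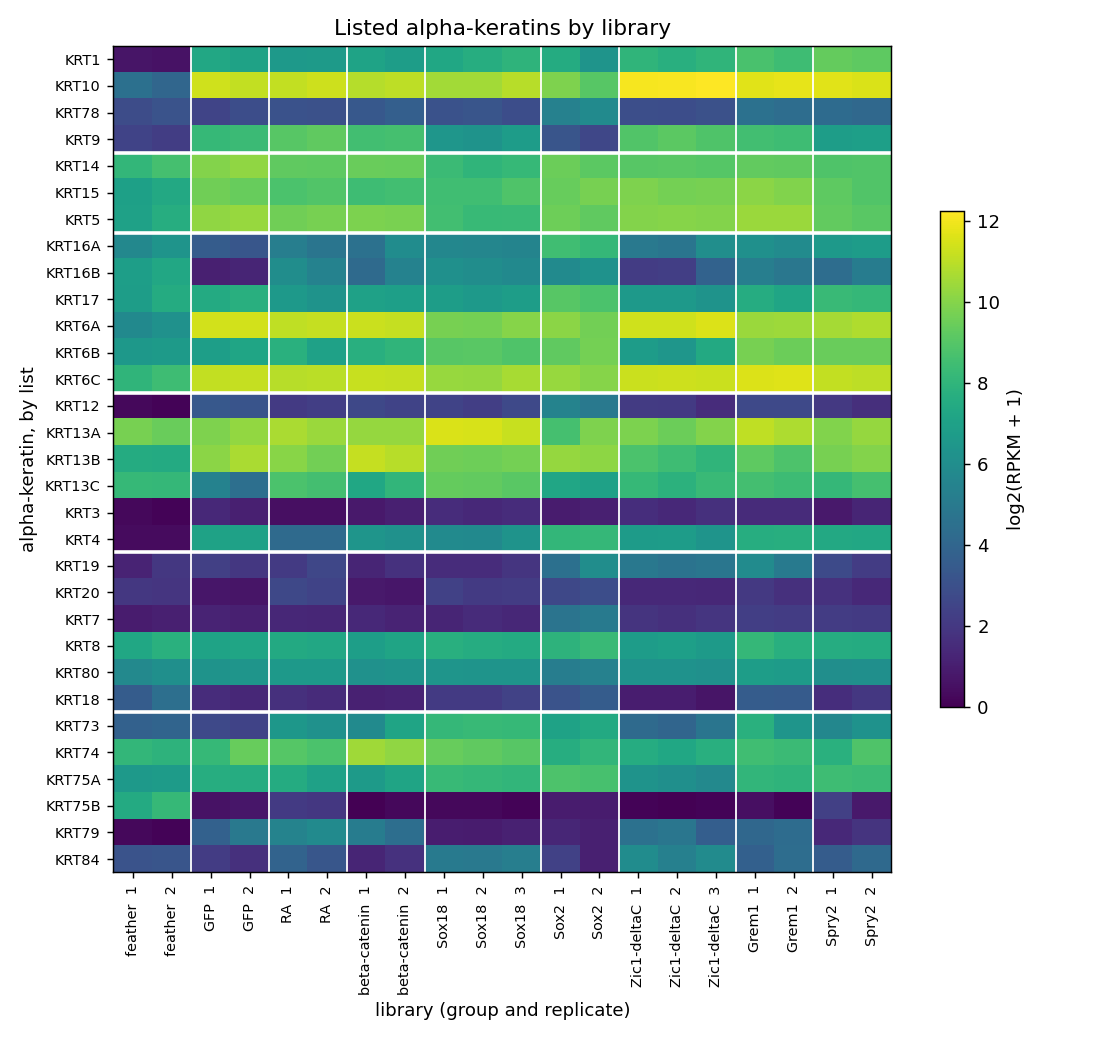
Log2(RPKM + 1) of the listed alpha-keratins (rows, in the order suprabasal, basal, stress, internal stratified, simple epithelium, follicle and nail) in the 20 libraries (columns). KRT10 is bright in all scale libraries and much darker, though still detected, in feather (18.8 RPKM on average). KRT9 is dark in feather and in Sox2 scales (4.10 and 6.80 RPKM on average), while the KRT78 row is brightest with Sox2 (48.9 RPKM).

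The keratins whose pattern was most like each gene were ranked by Pearson's r of log2(RPKM + 1) over the 20 libraries, as a description. Libraries of a group share their treatment, and the feather libraries stand far from the rest, so r was also taken over the 18 scale libraries. For KRT1 the nearest of the other 162 keratins was KRT10 (r = 0.95, Spearman's rho = 0.72), followed by Chr25_scale14 (0.91), KRT4 (0.89), KRT6C (0.89) and KRT6A (0.85). Without feather the r of KRT1 with KRT10 was 0.56, and with KRT6A -0.06, while Chr25_Ktn4 (0.61) and Chr25_Ktn5 (0.60) were nearer. By Spearman's rho Chr25_Ktn5 (0.89) was closer to KRT1 than KRT10 was over all 20 libraries too. For KRT10 the nearest was KRT6C (r = 0.96, rho = 0.85), then Chr25_scale14 (0.96), KRT6A (0.95), KRT1 (0.95) and Chr25_scale16 (0.92). Its likeness to KRT6C was still 0.86 over the scale libraries, where KRT6C was again the nearest keratin and 42nd among all 11862 other genes. Next there came Chr25_Ktn5 (0.85), Chr25_Ktn3 (0.83), KRT9 (0.83) and Chr25_Ktn4 (0.76). Over the scale libraries KRT1 was 467th of the 11862 other genes in r with KRT10. The high r of KRT1 with KRT10 over 20 libraries thus drew on the gap between feather and scale. Their rho fell less, from 0.72 over 20 libraries to 0.62 over the 18 scale libraries.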

How the data were processed

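RNA-seq values were analysed for 20 libraries in 9 groups. The submitters' processing notes name TopHat2, Partek and the galGal4 build, and the authors deposited RPKM to 1 decimal for all genes and again for keratins, with identical values for all 180 keratins. Tool versions, annotation, strand and the handling of reads shared between genes were not found, so values of closely similar keratins are uncertain. Depth is unknown, since RPKM to 1 decimal does not give whole reads. Computed here were group means, SD, ratios and limma fits (limma 3.58.1, R 4.3.3, trend, 11 residual and 5.35 prior degrees of freedom) of log2(RPKM + 1) for genes with at least 1 RPKM in at least 2 libraries, with Benjamini-Hochberg adjustment. With 2 libraries against 2 the smallest exact p is 0.333, so no rank test was used. The code was checked on simulated data. Python 3.11.15 and matplotlib 3.10.9 were used for description and figures. Sequences were not used here.

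The members and lists were chosen with earlier results of these data known. Genes named were KRT1, KRT10, the basal keratins, the most abundant member of each other list, and the 5 keratins of highest r. KRT78 and the most abundant alpha-keratin of each group were named after their values were seen. The 25 symbols of other cell types and other epidermal genes matched 0 rows, because 0 of 16110 Ensembl identifiers are paired with a name in the files or the reference table, so these and the virally delivered genes are not assessed. Alternatives were 2 filters, a pseudocount of 0.1, 2 scalings, a replicate block, fits of only 2 groups, a robust prior and leaving out each of the 20 libraries.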

Additional observations from a re-analysis of the deposited data

How the results depend on the processing

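Over 28 alternatives, the 30 changes of KRT1 and KRT10 against GFP scale or feather gave 840 values, of which 796 kept their direction and side of the threshold. All changes against feather did, as did feather against GFP, KRT1 with Spry2 and Grem1 and KRT10 with Sox2 against GFP. KRT1 with Zic1-deltaC missed the threshold with no filter (0.71), a pseudocount of 0.1 (0.71), median-ratio scaling (0.65), quantile normalization (0.74) and a robust prior (0.71), and ranged from 0.56 to 0.85 with 1 library left out. KRT10 with Sox18 missed it with no filter (-0.57) and after median-ratio scaling (-0.35), with -0.71 to -0.44 over left-out libraries. KRT10 with Zic1-deltaC ranged from 0.76 to 1.03. Now past it were KRT1 with Sox18 after median-ratio scaling (0.65; 0.26 to 0.58 over left-out libraries), KRT10 with Spry2 (0.95) and Grem1 (1.02; 0.38 to 0.64) after quantile normalization, and KRT1 with RA in a fit of only 2 groups (-0.60; -0.75 to -0.45). KRT1 with RA and Sox18 and KRT10 with Grem1 also passed without either Sox2 library. Signs turned for KRT10 with RA after median-ratio scaling (0.32; -0.175 to 0.0930), for KRT1 with Sox2 (-0.87 to 0.31), and, among neighbours, for KRT1 between Sox2 and beta-catenin (0.12 after quantile normalization; -0.61 to 0.56) and KRT10 between RA and beta-catenin (-0.0314 after quantile normalization). The moderated F was called in every fit. The log2 ratio of KRT10 to KRT1 in feather, 5.08, was 3.65 with a pseudocount of 1 and 4.84 with 0.1. After median-ratio scaling 1 rather than 3 basal keratins was lower with RA, 16 rather than 9 alpha-keratins were higher in feather, 16 rather than 10 higher and 5 rather than 8 lower with RA, and 10 rather than 6 lower with Spry2. In Sox18 scales 18 rather than 12 alpha-keratins were higher. The causes were not tested.

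Same-numbered libraries of different groups did not deviate together (correlations -0.28 to 0.21, median -0.01), so numbers were not read as pairs. With the replicate block KRT1 passed with RA (-0.60, limma adjusted p = 0.0387) and between Spry2 and Grem1 (0.70, 0.0354), and missed with Zic1-deltaC (0.60, 0.0729).

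Counts of all genes called moved by over 1.5 times with a filter at a mean of 5 RPKM, which tests fewer genes (from 10476 to 6547 in feather, 7182 to 4729 with RA, 6360 to 4081 with Sox18, 2748 to 1607 with beta-catenin, 6987 to 4408 with Sox2, 2935 to 1874 with Zic1-deltaC, 3001 to 1953 with Spry2 and 3724 to 2119 with Grem1). They also moved after median-ratio scaling with RA (4284) and Sox2 (4593), after quantile normalization with RA (4677) and in the fit of only 2 groups with beta-catenin (1816). With 1 library left out the lowest counts were 1515 with beta-catenin, 1271 with Zic1-deltaC, 1600 with Spry2 and 2227 with Grem1. KRT1 in feather lies near the smallest values the tables can show.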
